A study of Mus musculus with 10 samples.

Results

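The genes described here are 10 nuclear-encoded regulators of mitochondrial biogenesis and of mitochondrial DNA (mtDNA) expression: Ppargc1a, Ppargc1b, Nrf1, Esrra, Tfam, Tfb2m, Polrmt, Polg, Lrpprc and Slirp. They were found by their symbols among the 45707 rows of a gene table from mouse jejunum, the middle section of the small intestine. Each symbol matched 1 row, and all 10 were among the 14301 genes kept for testing, which reached a value of 10 in 5 libraries or more. RNA sequencing had been run on 5 Vil-Cre and 5 Vil-Cre:NDI1 male littermates, 1 library per mouse, to ask whether expression of NDI1 affects the jejunal transcriptome. Both genotypes carry Cre recombinase under the Villin promoter, which is active in intestinal epithelium. The Vil-Cre:NDI1 mice also carry, at the ROSA26 locus, a Cre-activated copy of NDI1, the single-subunit NADH dehydrogenase of the yeast Saccharomyces cerevisiae. All were young adults, fasted overnight and given water by gavage before flushed jejunum was collected. The libraries are of whole tissue, in which epithelium is mixed with muscle, immune and other cells, so fewer cells of a type and less RNA per cell cannot be told apart.

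Mitochondria are built from proteins of 2 genomes, and nuclear genes set how much mtDNA is copied, transcribed and kept as stable RNA. The coactivators PGC-1α (Ppargc1a) and PGC-1β (Ppargc1b) are recruited by DNA-binding factors, among them nuclear respiratory factor 1 (Nrf1) and oestrogen-related receptor α (Esrra), to genes of the respiratory chain and of mtDNA upkeep. Inside the organelle, TFAM packages mtDNA and bends its promoters, TFB2M melts them, POLRMT transcribes from them, POLG copies the genome, and the LRPPRC and SLIRP complex stabilizes the mRNAs that are made. The symbol Nrf1 here is nuclear respiratory factor 1 and not Nfe2l1, a different gene that shares the abbreviation.

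No difference between the genotypes passed the test for any of the 10 genes. With limma, fitted over the 14301 genes on log2(normalized count + 1), 0 of the 10 passed an adjusted p of 0.05, against 0.00699% of all genes, which is 1 gene, NDI1 itself. At an unadjusted p under 0.05 the count was also 0 of 10, against 4.24% of all genes, and it was 0 with DESeq2 and 0 with edgeR as well. Values of the 2 genotypes overlapped for every member, while 0.699% of all genes had groups that did not overlap. The adjusted p by limma was 0.998 for each member. The median log2 fold change of the members was 0.074, with 6 above 0 and 4 below, and that of all genes tested was 0.0052. Without Vil-Cre:NDI1 mouse 2 the members' median was -0.0090. The 95% interval of the difference lay within 2-fold in either direction for 9 members, all but Polg, and within 1.5-fold for 6, which were Nrf1, Esrra, Tfam, Polrmt, Lrpprc and Slirp. For all genes tested these shares were 79.6% and 53.5%. The p-values weigh the difference between the genotype means against the spread between these mice.

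**Figure D1:**
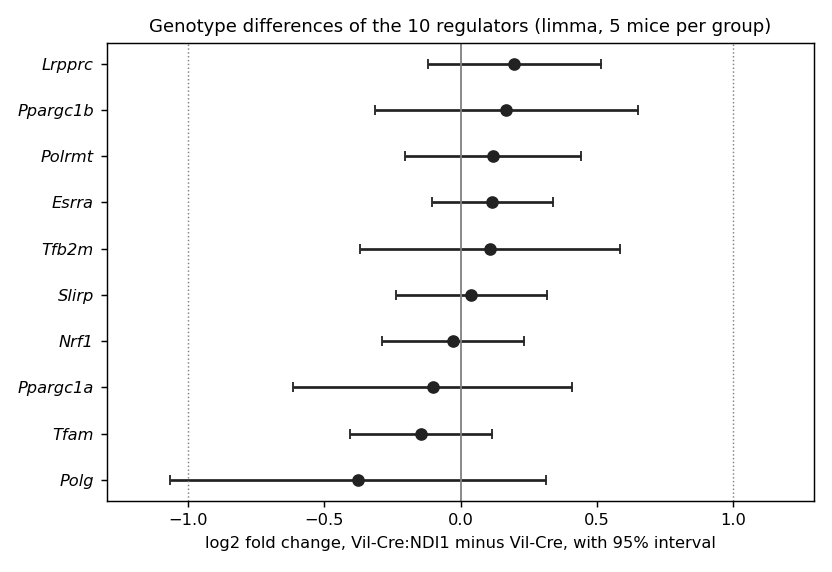
Points are limma log2 fold changes of the 10 regulators (x axis, Vil-Cre:NDI1 minus Vil-Cre, 5 mice per group) and bars are 95% intervals; dotted lines mark a 2-fold change in either direction. Every interval crosses 0, and the widest, that of Polg, runs from -1.07 to 0.31.

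The libraries held 10145705 to 12371530 reads on genes. NDI1 was read in all 5 Vil-Cre:NDI1 libraries, at 982 to 2575 normalized counts, and in 1 of 5 Vil-Cre libraries by a single read. All 10 enterocyte markers, among them Vil1 and Fabp2, were read in every library, and their summed normalized counts were 351756 to 599000 in Vil-Cre and 517939 to 692973 in Vil-Cre:NDI1 mice. The mean of each of the 10 was higher in Vil-Cre:NDI1 mice, and the lowest sum was that of Vil-Cre mouse 5. All 6 goblet cell markers had a lower mean in Vil-Cre:NDI1 mice, with sums of 67284 to 99191 against 87330 to 114350 in Vil-Cre mice. The part of these cell type differences in the values below was not tested.

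Compared per kilobase of annotated exon, Esrra stood far above the other 9 regulators. It reached 836 ± 89.6 normalized counts per kilobase (SD, n = 10), a level above that of 95.2% of the 14255 tested genes with a known length. Ppargc1a followed at 134 ± 42.9, and then Tfam at 84.0, Slirp at 76.4, Lrpprc at 72.1, Tfb2m at 71.7, Polg at 63.1, Polrmt at 52.4, Ppargc1b at 44.96 and Nrf1 at 21.0. The median of all tested genes was 44.5 on the same scale, so Nrf1 alone of the 10 lay below it. In exact sign-flip permutation tests of the 9 neighbouring pairs, adjusted over the pairs, Esrra exceeded Ppargc1a in 10 of 10 mice by 2.69 on the log2 scale (adjusted p = 0.0088), Ppargc1a exceeded Tfam in 9 of 10 mice by 0.63 (adjusted p = 0.012), and Ppargc1b exceeded Nrf1 in 10 of 10 mice by 1.06 (adjusted p = 0.0088). The other 6 neighbours, from Tfam down to Ppargc1b, did not differ beyond their spread, with adjusted p of 0.21 or above in the same permutation tests. Without Vil-Cre:NDI1 mouse 3, 5 neighbouring pairs differed, the added ones being Tfam over Slirp and Polrmt over Ppargc1b. The place of Slirp is uncertain if reads were not counted by strand, because 2914 of its 3104 exon bases overlap Snw1. The order depends on the length used. Per kilobase of the longest transcript, Lrpprc was at place 2 and Nrf1 at place 9 with 53.4, just above Ppargc1b, and these last 2 no longer differed beyond their spread (permutation adjusted p = 0.59). Per kilobase of the annotated principal transcript, a choice made after the data were seen, Lrpprc moved from place 5 to place 2 at 139.6, and Nrf1 moved from last place to place 4 at 115, while Esrra stayed first at 1637.

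**Figure D2:**
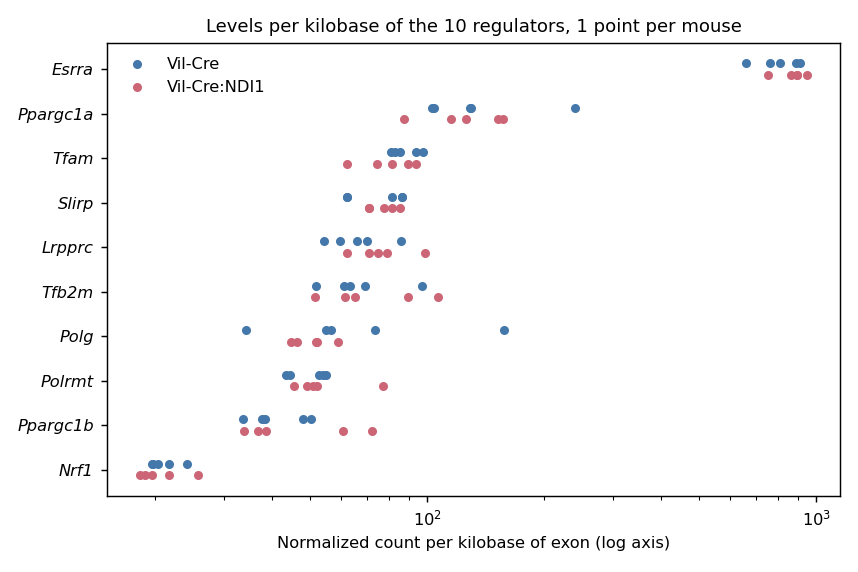
Each point is 1 mouse (blue Vil-Cre, red Vil-Cre:NDI1), the x axis is the normalized count per kilobase of exon on a log axis, and genes are ordered by their mean over 10 mice. Esrra lies between 658 and 948 in every mouse, and the points of both genotypes lie over each other for each gene.

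Ppargc1a (ENSMUSG00000029167, minus strand of chr5:51454250-51567726, GRCm38) encodes PGC-1α, a coactivator that fasting and energy demand are known to raise in several tissues. In the order of mice 1 to 5, used throughout, the Vil-Cre mice had 851, 685, 855, 1580.3 and 677 normalized counts. The 5 Vil-Cre:NDI1 mice had 1003, 828, 1034, 574 and 761. Vil-Cre mouse 4 stood well above every other mouse, and the other 4 Vil-Cre mice lay within the range of the Vil-Cre:NDI1 mice. The means were 929.6 ± 374 and 839.9 ± 188 (SD, n = 5 each), a log2 difference of -0.10 with a 95% interval of -0.61 to 0.41 (two-sided exact permutation p = 0.730). Without Vil-Cre mouse 4 the log2 difference was 0.11, and without Vil-Cre:NDI1 mouse 4 it was 0.028, so the sign rested on single mice.

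In several marker sums the library of Vil-Cre mouse 4 was also the highest or lowest of its genotype. Its summed smooth muscle markers were 11841 against 21233 to 25195 in the other 4, and its summed Paneth cell markers 34577 against 70371 to 121947. Its summed T cell markers were 1848 against 611 to 1152. Its tuft, B and plasma, neuron and glia, and endothelial cell sums also lay outside the range of those 4. Its enterocyte, goblet, crypt, enteroendocrine, adipocyte and hepatocyte sums lay inside. Of the hepatocyte list, Serpina1a was at 0 in 3 libraries and Fgb in 2, so this sum is not read as hepatocyte content. Vil-Cre:NDI1 mouse 1 came near the values of Vil-Cre mouse 4, with 13681 for smooth muscle and 1778 for T cells. Vil-Cre:NDI1 mouse 5 had 39697 for Paneth cells. Their Ppargc1a values were 1003 and 761. Such extremes were not particular to Vil-Cre mouse 4. Within the Vil-Cre group, mouse 3 was highest in enterocyte, enteroendocrine, tuft, smooth muscle, adipocyte and hepatocyte sums and lowest in the goblet sum. Vil-Cre mouse 5 was highest in the crypt sum and lowest in enterocyte, adipocyte, hepatocyte, B and plasma, and T cell sums. These 2 mice had Ppargc1a values of 855 and 677. The part of these marker sums in the Ppargc1a value of Vil-Cre mouse 4 was not tested. For the other 9 regulators this library lay within the range of the remaining 9 mice.

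Ppargc1b (ENSMUSG00000033871, minus strand of chr18:61298136-61400431) encodes PGC-1β, the closest relative of PGC-1α. Its normalized counts were 153, 149.9, 191, 200.2 and 134 in Vil-Cre mice. They were 242, 147, 288, 154 and 135 in Vil-Cre:NDI1 mice. Vil-Cre:NDI1 mice 1 and 3 were the highest of the 10, and the other 3 lay within the Vil-Cre range. The group means of 166 ± 28.5 and 193 ± 67.8 differed by 0.17 on the log2 scale (95% interval -0.31 to 0.65, exact permutation p = 0.508), and by 0.0085 without Vil-Cre:NDI1 mouse 3.

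The relation between the 2 coactivators was positive but did not pass the threshold over the 45 pairs of members. Pearson's r between them was 0.627 over the 10 mice (permutation p = 0.0514, adjusted p = 0.664), and Spearman's rho was 0.745 (permutation p = 0.0174, adjusted p = 0.392). Without mouse 4 of each genotype, the 2 farthest from the median of Ppargc1a, r was 0.885. With each gene centred on its genotype mean, r was 0.684 (permutation p = 0.0267, adjusted p = 0.351).

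Nrf1 (ENSMUSG00000058440, plus strand of chr6:30047988-30153458) encodes a DNA-binding factor whose known targets include respiratory chain genes and TFAM. Vil-Cre mice had 202, 248, 203, 209 and 223 normalized counts. Vil-Cre:NDI1 mice had 223, 202, 194, 265 and 188. These values spanned only 1.41-fold from the lowest mouse to the highest, and both ends belonged to Vil-Cre:NDI1 mice. The means were 217 ± 19.4 and 214 ± 31.4, a log2 difference of -0.027 with a 95% interval of -0.29 to 0.23 (exact permutation p = 0.778).

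Esrra (ENSMUSG00000024955, minus strand of chr19:6910977-6921813) encodes an orphan nuclear receptor that works with both PGC-1 coactivators. Its normalized counts were 3539.7, 3887, 3339, 3979.7 and 2888 in Vil-Cre mice and 3781, 3922, 3906, 3294 and 4158 in Vil-Cre:NDI1 mice. The lowest value was that of Vil-Cre mouse 5, which also had the lowest summed enterocyte markers, and the highest was that of Vil-Cre:NDI1 mouse 5, which had the highest sum. Vil-Cre mouse 3, with the highest sum of its genotype at 599000, was at place 8 of 10 in Esrra. The relation over the 10 mice was not tested. Esrra exons share 73 bases with Trmt112 on the opposite strand, read at 160.4 to 223 normalized counts. The means were 3527 ± 441 and 3812 ± 319.9, differing by 0.12 on the log2 scale (95% interval -0.11 to 0.34, exact permutation p = 0.310). Without Vil-Cre mouse 5 the difference was 0.048. Esrra had the smallest spread of the 10, with a mean within-group coefficient of variation of 10.4%, and 18.1% of all genes tested had a smaller one.

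Tfam (ENSMUSG00000003923, minus strand of chr10:71225464-71238280) encodes the protein that coats mtDNA and is needed to start its transcription. The Vil-Cre values were 415, 358, 368, 377 and 432 normalized counts, and the Vil-Cre:NDI1 values 416, 329.8, 276, 396 and 360.4. Vil-Cre:NDI1 mice 2 and 3 were the lowest of the 10, and the other 3 lay within the Vil-Cre range. The means of 390.0 ± 32.01 and 355 ± 55.3 differed by -0.14 on the log2 scale (95% interval -0.40 to 0.12, exact permutation p = 0.270), and by -0.057 without Vil-Cre:NDI1 mouse 3.

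Tfb2m (ENSMUSG00000026492, minus strand of chr1:179528055-179546267) encodes the factor that opens mtDNA promoters for the polymerase. It was read at 194, 146, 273, 178 and 171 normalized counts in Vil-Cre mice and at 173, 299, 251, 183 and 144 in Vil-Cre:NDI1 mice. The 3 highest were Vil-Cre:NDI1 mouse 2, Vil-Cre mouse 3 and Vil-Cre:NDI1 mouse 3, and the groups overlapped over nearly their whole range. The log2 difference was 0.11 (95% interval -0.37 to 0.59, exact permutation p = 0.683), and it was -0.031 without Vil-Cre:NDI1 mouse 2.

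Polrmt (ENSMUSG00000020329, minus strand of chr10:79736123-79746581) encodes the mitochondrial RNA polymerase. Vil-Cre mice had 204, 257, 246, 253 and 208 normalized counts, and Vil-Cre:NDI1 mice had 238, 361, 230.4, 244 and 212. Vil-Cre:NDI1 mouse 2 stood above all others, and the remaining 9 lay between 204 and 257. This mouse also had the highest Tfb2m value. The means were 234 ± 25.7 and 257 ± 59.1, a log2 difference of 0.12 (95% interval -0.20 to 0.44, exact permutation p = 0.556), and without that mouse it was -0.0093.

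Polg (ENSMUSG00000039176, minus strand of chr7:79446231-79466362) encodes the catalytic subunit of the polymerase that replicates mtDNA. Its values in Vil-Cre mice were 1694, 367, 590.1, 607 and 787 normalized counts. In Vil-Cre:NDI1 mice they were 480.3, 498, 634, 558 and 558. The Vil-Cre group held both the highest and the lowest of the 10 mice, 4.62-fold apart, and all 5 Vil-Cre:NDI1 mice lay between them. The means were 809 ± 517 and 546 ± 60.5, a log2 difference of -0.38 with a 95% interval of -1.07 to 0.31 (exact permutation p = 0.389).

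This was the largest difference among the 10 regulators, and it rested on single control mice. Without Vil-Cre mouse 1, at 1694, the log2 difference was -0.062. Without Vil-Cre mouse 2, at 367, it was -0.61, past an unadjusted threshold of 0.05 both with limma and in the exact permutation test, while limma's adjusted p was 1.00. Polg was also the most variable member within a genotype, with a mean coefficient of variation of 37.5%, larger than that of 80.4% of all genes tested. Exons of Polg share 921 bases with Fanci, a DNA repair gene on the opposite strand, and whether reads were counted by strand was not stated. Fanci was low, at 7.66 to 48.0 normalized counts, and had 34.6 in Vil-Cre mouse 1.

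**Figure D3:**
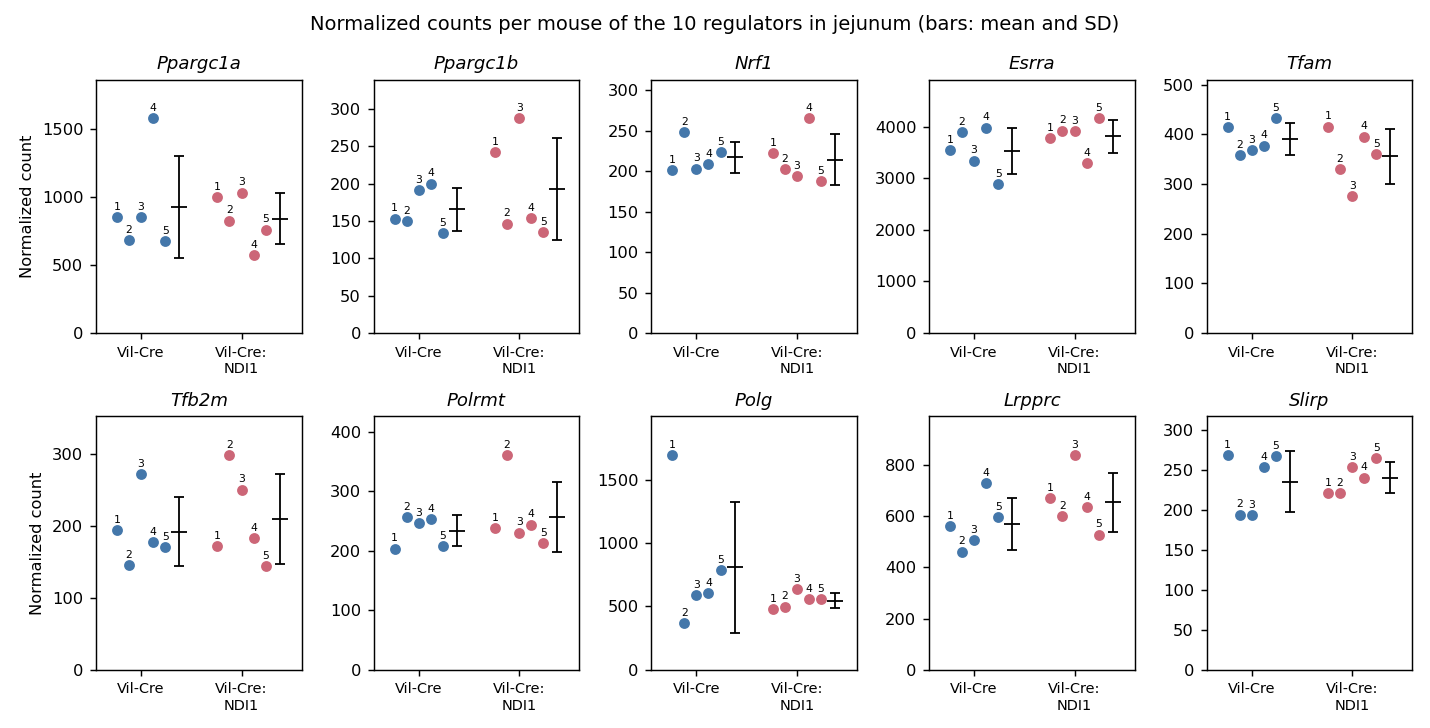
Each panel shows 1 gene, with normalized counts on the y axis, 1 point per mouse numbered by replicate (blue Vil-Cre, red Vil-Cre:NDI1), and black bars for the mean and SD of 5 mice. The groups overlap in every panel, and Ppargc1a at 1580.3, Polg at 1694 and Polrmt at 361 are single high mice.

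Lrpprc (ENSMUSG00000024120, minus strand of chr17:84705247-84790789) encodes a pentatricopeptide repeat protein that binds and protects mitochondrial mRNAs. Vil-Cre mice had 561, 462, 508, 729 and 597 normalized counts, and Vil-Cre:NDI1 mice had 671, 601, 839, 636 and 528. The highest mouse was a Vil-Cre:NDI1 and the lowest a Vil-Cre, with the other 8 interleaved. The means of 571 ± 102 and 655 ± 116 differed by 0.20 on the log2 scale (95% interval -0.12 to 0.51, exact permutation p = 0.238). The difference was 0.10 without Vil-Cre:NDI1 mouse 3 and 0.29 without Vil-Cre mouse 4.

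Slirp (ENSMUSG00000021040, plus strand of chr12:87443896-87452206) encodes the small RNA-binding partner of LRPPRC. Its values were 268, 194, 193, 253 and 267 normalized counts in Vil-Cre mice and 221, 220.5, 253, 239.9 and 264 in Vil-Cre:NDI1 mice. All 5 Vil-Cre:NDI1 mice lay inside the Vil-Cre range. The log2 difference was 0.040 (95% interval -0.24 to 0.32, exact permutation p = 0.706), and it was -0.023 with libraries scaled to equal totals. Of the 3104 bases of Slirp exon, 2914 are shared with Snw1, a splicing factor gene on the opposite strand read at 462 to 581 normalized counts. Alkbh1 shares 122. The values of Slirp are therefore uncertain if reads were not counted by strand. Over the 10 mice Lrpprc and Slirp had an r of 0.454 (permutation p = 0.190, adjusted p = 0.664) and a rho of 0.224 (permutation p = 0.537, adjusted p = 0.806), and r was 0.162 without the 2 mice farthest from the median of Lrpprc.

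Reads behind the members ranged from 115 for Ppargc1b to 4305 for Esrra in a library. The spread that counting alone would give ran from 1.65% for Esrra to 7.44% for Ppargc1b, below the within-group coefficient of variation of each member, which ran from 10.4% to 37.5% around a median of 19.6% for all genes tested. Ppargc1a had 31.3%, Tfb2m 27.6% and Ppargc1b 26.2%. Lrpprc at 17.8% and Polrmt at 17.0% lay near the middle, and Slirp, Tfam and Nrf1 varied little, at 12.2%, 11.9% and 11.8%.

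Short sequences near the starts of Tfam, Polg and Slirp are shown because each holds an exact match to the motif of a factor known to act on genes of mitochondrial biogenesis. RefSeq promoters (GRCm38.p6, 300 bases around each start) were found for 9 of the 10 genes, with 2 starts for Nrf1, and Ppargc1b had no entry. Both strands were searched for 4 motifs: CCGGAAGT, bound by ETS factors such as GABP; AAGATGGCG, bound by YY1; GCGCATGCG, bound by NRF1 itself; and TCAAGGTCA, bound by oestrogen-related receptors. No promoter of the 9 genes held more than 1 match, so no matches overlapped. Capitals mark the match, and the sequences run 5′ to 3′ on the strand of the gene.
Tfam, minus strand, chr10:71238074-71238101: ctgccgcggaCCGGAAGTccgggcttcc
Polg, minus strand, chr7:79466294-79466321: aggacctcacCCGGAAGTccctctgcac
Slirp, plus strand, chr12:87443800-87443828: ccacagcagcCGCCATCTTccccatctcg

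Where the ETS matches lie depends on the annotation. They began 47 bases before the RefSeq start of Tfam and 38 bases before that of Polg, in the direction of the gene in both. The GENCODE genes, whose coordinates are given above, start farther out, and there the matches fall 189 and 51 bases inside, in annotated exon. The match in Slirp is the YY1 motif on the other strand, 86 bases upstream of the start in both annotations. The ETS motif was in 3.89% of all 32851 promoters in the table and the YY1 motif in 1.40%. The NRF1 motif, in 1.75% of all promoters, was matched in Tfb2m alone of the 9 genes, just downstream of its start. The receptor motif, in 0.423% of all promoters, was in none of these windows, which says only that these letters are absent there. Median GC content was 63.2% in the 10 promoters of the members and 52.7% in all, and the median number of CpG dinucleotides was 24 and 7. Tfam and Polg, which share the ETS match, had an r of 0.32 over the 10 mice.

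The genes did not move as a block from mouse to mouse. Of the 45 pairs of members, 23 had an r above 0, the median r was 0.0058 and the range ran from -0.56 for Esrra and Tfam to 0.703 for Ppargc1b and Lrpprc. No pair passed an adjusted p of 0.05 in the permutation test. By Pearson's r 2 had an unadjusted p under 0.05, about what 45 tests would give by chance. One was Ppargc1b and Lrpprc (permutation p = 0.0237, adjusted p = 0.664, rho 0.612, permutation p of rho 0.0676), whose r was 0.309 without the 2 mice farthest from the median of Ppargc1b. The other was Polg and Slirp (r 0.633, permutation p = 0.0348, adjusted p = 0.664, rho 0.697, permutation p of rho 0.0308), whose r was 0.514 without Vil-Cre mice 1 and 2. By Spearman's rho 0 pairs passed and 3 had an unadjusted p under 0.05, also about what chance would give. Of these Polrmt and Slirp had the strongest rho, at -0.794 (permutation p = 0.0087, adjusted p = 0.392), with an r of -0.53. Ppargc1a and Esrra, coactivator and partner, had an r of 0.476 (permutation p = 0.164, adjusted p = 0.664, rho 0.455).

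**Figure D4:**
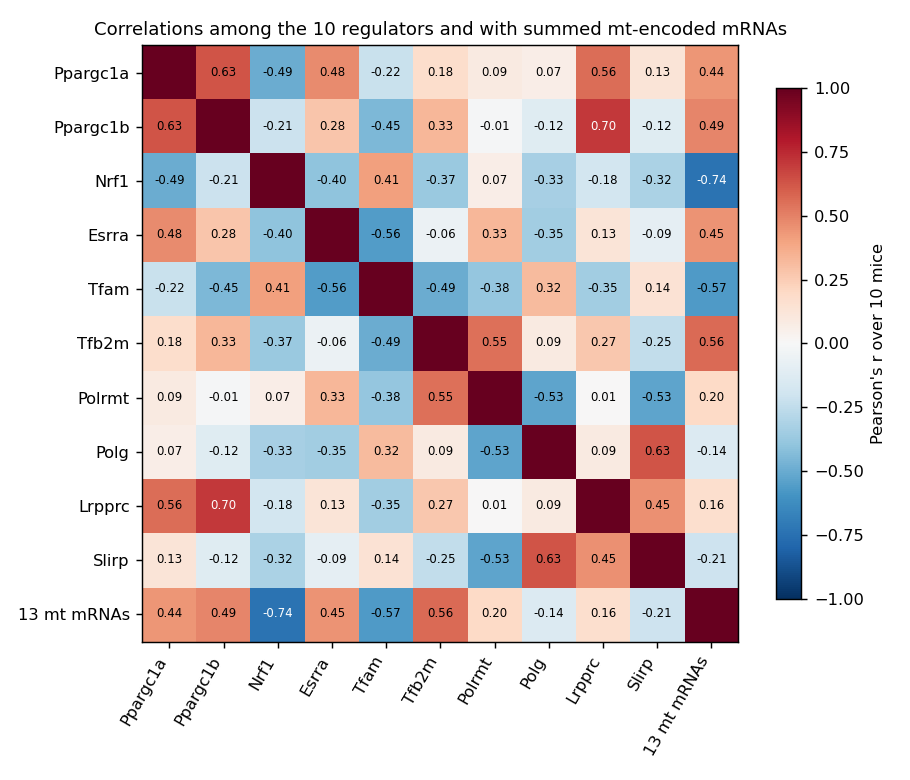
Each cell gives Pearson's r over the 10 mice between the row and the column, on log2(normalized count + 1), with the summed mt-encoded mRNAs in the last row and column. Positive and negative values are mixed, and the strongest, between Nrf1 and the summed mt-encoded mRNAs, is -0.74.

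The mRNAs that these proteins make and protect are the 13 encoded by mtDNA. Summed, they took 5.16% ± 0.731 of all normalized counts in Vil-Cre mice and 5.30% ± 0.536 in Vil-Cre:NDI1 mice (SD, n = 5 each, exact permutation p = 0.675). The sum was 536186, 500361, 712944, 581904 and 483789 normalized counts in Vil-Cre mice and 589629, 616588, 659716, 501717 and 645514 in Vil-Cre:NDI1 mice. Vil-Cre mouse 3 was highest and Vil-Cre mouse 5 lowest, so the Vil-Cre range held all Vil-Cre:NDI1 mice. The log2 difference was 0.11 (exact permutation p = 0.405). All 13 had a positive log2 fold change, from 0.078 to 0.14, against 51.2% of all genes tested. The 13 were measured in the same mice, so their signs are not independent. By limma's test 0 passed, adjusted or not, as with DESeq2 and edgeR on all 10 libraries. The smallest p-values by limma were those of mt-Atp8 (log2 fold change 0.14, exact permutation p = 0.246) and mt-Atp6 (0.13, exact permutation p = 0.310). With equal totals the 13 values were 0.015 to 0.077, and without Vil-Cre mouse 3, which had the highest sum, they were 0.16 to 0.24. On the 8 libraries without Vil-Cre mice 3 and 4 DESeq2 gave 0.20 to 0.30, of which 8 had a p below 0.05 before adjustment. Over all genes this fit had 2071 of 25537 below it. With edgeR the 13 were 0.19 to 0.29, of which 1 had such a p, against 1208 of 13928 of all genes. None of the 13 passed after adjustment in either fit. Per kilobase, mt-Co1 was highest at 112269 normalized counts and mt-Nd3 lowest at 13121, both far above any of the 10 nuclear regulators.

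Among the 10 regulators, none was related to the summed mt-encoded mRNAs past an adjusted p of 0.05 by Pearson's r. Nrf1 came nearest and was negative, with an r of -0.741 (permutation p = 0.0137, adjusted p = 0.137) and a rho of -0.709 (permutation p = 0.0273, adjusted p = 0.273). The r was -0.852 without Vil-Cre mice 3 and 5, the 2 farthest from the median of the sum. Centred within genotype, r was -0.751 (permutation p = 0.0117, adjusted p = 0.117). With equal totals r was -0.719 (permutation p = 0.0195, adjusted p = 0.195), while rho was -0.842 and passed (permutation p = 0.0036, adjusted p = 0.0358).

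The genes that package and transcribe mtDNA gave mixed signs. Tfam had an r of -0.568 with the sum (permutation p = 0.082, adjusted p = 0.307, rho -0.539) and Tfb2m an r of 0.564 (permutation p = 0.0921, adjusted p = 0.307, rho 0.479). Polrmt had 0.202, Polg -0.136, Lrpprc 0.164 and Slirp -0.209, with permutation p of 0.55 or above. Esrra had 0.45, Ppargc1a 0.44 and Ppargc1b 0.49, with permutation p of 0.157 to 0.204.

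For 9 members the gene outside the group whose values were most alike over the 10 mice was found, as a description. These were Fnip1 for Ppargc1a (r 0.952), Zfp456 for Ppargc1b (0.924), Tmed9 for Nrf1 (0.938), Zfyve21 for Esrra (0.943), Gm2a for Tfam (0.896), Fbxl20 for Tfb2m (0.932), Wipi1 for Polrmt (0.928), Zkscan1 for Lrpprc (0.920) and Dtymk for Slirp (0.940). The median of this highest r over all tested genes was 0.938, which the closest match of 3 of these 9 members exceeded. Tfam had no gene over 0.9.

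The rest of the machinery was described with 4 lists of nuclear genes, 63 in all, of which 62 were tested. With limma 0 of the 62 passed an adjusted p of 0.05 and 1 had an unadjusted p under it, Trub2, a mitochondrial RNA pseudouridine synthase. Over all genes tested 4.24% had such an unadjusted p, a share that 1 of 62 does not exceed. With DESeq2 and edgeR on the same 10 libraries the counts were likewise 0 and 1. Over all genes 1257 of 26142 and 666 of 14301 had an unadjusted p under 0.05 in these fits. In both the 1 gene was again Trub2. It had 326 ± 82.4 normalized counts in Vil-Cre and 434 ± 67.2 in Vil-Cre:NDI1 mice (SD, n = 5 each), a log2 fold change of 0.43 (limma adjusted p = 0.998, exact permutation p = 0.063).

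The 17 tested coregulators and transcription factors, partners of the coactivators and of Nrf1 and Esrra, had 8 log2 fold changes above 0 and 9 below, with a median of -0.020. Esrrb fell under the filter on low values. With edgeR on the 17 the median was 0.0094, and with DESeq2, which also tested Esrrb, it was 0.024 over 18 genes. The smallest limma p-values were those of Ppard, a nuclear receptor of fatty acid signalling (log2 fold change -0.25, exact permutation p = 0.063), the corepressor Ncor1 (-0.29, permutation p = 0.159) and Hcfc1, a cofactor of promoter-bound complexes (-0.19, permutation p = 0.143).

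The 15 genes of mtDNA replication and maintenance, which act with Polg, had 12 values above 0 and a median of 0.15. Their smallest p-values by limma were those of the mitochondrial topoisomerase Top1mt (0.20, exact permutation p = 0.056), the nucleoside kinase Tk2 (-0.27, permutation p = 0.206) and the helicase Twnk, listed as Peo1 (0.15, permutation p = 0.135). The 7 genes of mtDNA transcription, which act with Polrmt and Tfb2m, had 6 values above 0 and a median of 0.13, but with DESeq2 4 of the 7 were above 0 and on the 8 libraries 3 of 7, with a median of -0.068. By limma's p they were led by Mterf1b (-0.57, exact permutation p = 0.429), Mterf4 (0.18, permutation p = 0.405) and Tfb1m (0.15, permutation p = 0.643), and Mterf1b was read at only 15.2 and 11.6 normalized counts on average. The 23 genes of mitochondrial RNA processing and stability, which act beside Lrpprc and Slirp, had 15 values above 0 and a median of 0.020, but with equal totals 8 above 0 and a median of -0.042, and without Vil-Cre mouse 2 8 above 0 and a median of -0.017. After Trub2 came the RNase P subunit Prorp, listed as 1110008L16Rik (-0.35, exact permutation p = 0.159), and Fastk (-0.18, permutation p = 0.310).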

How the data were processed

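Jejunal RNA of 10 mice was sequenced single-end. The authors ran the nf-core rnaseq pipeline against GRCm38 with the NDI1 sequence added (aligned with STAR, quantified with Salmon) and deposited a signal, normalized counts per gene, which are reads divided by size factors. The smallest non-zero value of each library was taken as 1 read. All non-zero values were whole multiples of it within 0.001 reads, but for Vil-Cre mice 3 and 4 this value is too near to 1 to be decisive, so count tests on reads were run with all 10 libraries and with 8. No deposited sample column was unused. Of 45707 rows, 45143 identifiers were found in GENCODE M21, whose coordinates and exon lengths are used. Intervals from counting cover counting error only.

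Members and lists were chosen with earlier results of these data known. Groups are the genotypes in the labels. The main test was limma 3.58.1 (R 4.3.3) on log2(value + 1), eBayes with a variance trend, Benjamini-Hochberg adjustment over the 14301 genes that reached a value of 10 in 5 or more libraries. Single values were compared over all 252 assignments of mice to groups (smallest p 0.0079), and correlations with 100000 permutations (scipy 1.17.1). Named genes were the 10 members, NDI1, in each list the 3 genes with the smallest p, the extremes of the 13 mt-encoded mRNAs, and the gene most alike to each member, which for Polg is not reported here. Alternatives were pseudocounts of 8 and 0.1, no filter on low values, equal library totals, DESeq2 1.42.0, edgeR 4.0.16, a replicate block, other lengths and leaving out each mouse. Scripts were tested on simulated data. No library was a duplicate of another of its genotype, with a chi-square per gene of 13.2 to 61.9 in the 20 pairs of replicates. Pairs between genotypes were not compared. Replicate numbers were shared between genotypes, and whether they mark pairs was not stated. Deviations of same-numbered mice correlated at -0.12 to 0.14, which cannot decide this, and the main test did not treat them as pairs.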

Additional observations from a re-analysis of the deposited data

Results flagged for a closer look

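In 22 groups of 5 mice (the 10 genes and the summed mt-encoded mRNAs, in each genotype), 2 held a mouse that stood apart by Dixon's criterion, and chance would give about 1.1. Ppargc1a in Vil-Cre mouse 4 was 1580.3 normalized counts against 677 to 855 in the other 4, a gap of 0.803 of the group's range, over the critical value of 0.71. Polrmt in Vil-Cre:NDI1 mouse 2 was 361 normalized counts against 212 to 244 in the other 4, a gap of 0.788. Polg in Vil-Cre mouse 1, at 1694 normalized counts, had a gap of 0.684 and did not pass. No other result on the members met the criteria for a closer look.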

How the results depend on the processing

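No member passed an adjusted p of 0.05 under any alternative run, and their adjusted p ranged from 0.476 to 1.00. The log2 fold changes of Ppargc1b, Esrra, Tfam, Polg and Lrpprc kept their sign in all 19 alternatives, Polg between -0.81 and -0.062. Slirp turned to -0.023 with equal totals, and on the 8 libraries to -0.025 with DESeq2 and -0.031 with edgeR, where Ppargc1a turned to 0.19 and 0.18; these fits on 8 libraries were chosen after seeing the data. Leaving out 1 mouse at a time, the log2 fold change ranged from -0.20 to 0.11 for Ppargc1a, 0.0085 to 0.28 for Ppargc1b, -0.11 to 0.023 for Nrf1, -0.20 to -0.057 for Tfam, 0.10 to 0.29 for Lrpprc, -0.026 to 0.091 for Slirp, -0.031 to 0.24 for Tfb2m and -0.0093 to 0.18 for Polrmt. Members with an unadjusted p under 0.05 were 0 to 1 by limma and 0 to 1 by the exact permutation test, the 1 being Polg without Vil-Cre mouse 2 in both. Neighbours in level that differed were 3 to 5, and 5 without Vil-Cre:NDI1 mouse 3. Genes that passed over the whole table were 0 to 1 when a mouse was left out. NDI1 has too few libraries for the filter once any Vil-Cre:NDI1 mouse is left out. Without mouse 2, 3 or 4 of Vil-Cre:NDI1 0 genes passed, and without mouse 1 or 5 the 1 gene that passed was not NDI1. DESeq2 gave 31 genes, and DESeq2 on the 8 libraries gave 276, where 1 pathway gene, Trub2, passed. With the replicate block, which treats same-numbered mice as pairs, 1 gene and 0 members passed, and the permutation test over 5 pairs cannot go below 0.0625. The causes were not tested. The signs of the pathway lists' medians also depended on the setting, as given beside them, apart from mtDNA replication and the mt-encoded mRNAs. The other counts of members, relations by Pearson's r, pathway genes and mt-encoded mRNAs past an adjusted p kept their side of the threshold. By Spearman's rho, Nrf1 and the summed mt-encoded mRNAs passed with equal totals, as given above.

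With 5 mice per genotype, differences of any size inside the interval of a gene are compatible with these data. Bulk RNA gives no protein or mtDNA copy number, and strand use in counting was not stated.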
